A study of Mus musculus with 8 samples.

Results

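The 9 genes described here encode scaffold proteins of the postsynaptic density, the protein layer under the membrane of excitatory synapses. They are Homer1, Homer2 and Homer3, Shank1, Shank2 and Shank3, Dlg4 (the gene of PSD-95), Grasp (the older symbol of tamalin) and Arc. They were taken by symbol from a table of 17613 genes. All 9 were listed, and all 9 were among the 15902 genes left for testing by a filter on low counts. Polyadenylated RNA of mouse brain was sequenced in 4 libraries labelled Uhrf2 KO and 4 labelled wild type (WT), all of C57BL/6 background. The labels name no allele, age, brain region or number of animals, so that every p-value measures the spread between these libraries, which may be technical. The study's title concerns 5-methylcytosine and seizures and the part of UHRF2, a nuclear protein that binds modified cytosine. The 9 genes were chosen by their scaffold role with their KO and WT read counts in these libraries already known, so their differences between the groups are given as a description, with p-values adjusted over all 15902 genes and not for that choice.

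The scaffold links receptors in the membrane to stores of calcium and to actin inside the dendritic spine. PSD-95 lies nearest the membrane and holds NMDA receptors and, through auxiliary subunits, AMPA receptors. SAPAP proteins join it to Shank proteins, and Homer proteins cross-link Shank with group I metabotropic glutamate receptors and with inositol trisphosphate receptors. Tamalin carries a PDZ domain, binds the same metabotropic receptors and joins them to cytohesins, which activate ARF GTPases. Arc is made after strong synaptic activity and helps to remove AMPA receptors from the surface. A short form of Homer1, Homer1a, is also made after activity and loosens the Homer links, since it lacks the part by which long forms pair. Counts per gene add up all transcript forms, so Homer1a and the long forms are not separated here.

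Library totals ran from 11891350 to 19773921 counts, and the values below are CPM, the counts of a gene per 1000000 counts of its library's scaled total. Uhrf2, the targeted gene, stood at 86.4, 88.6, 88.4 and 91.8 CPM in the libraries labelled KO, against 58.0, 47.7, 57.2 and 58.9 CPM in those labelled WT. It was thus higher where a knockout is labelled (log2 fold change 0.68, SE 0.06). Its adjusted p was 5.45e-06 in the quasi-likelihood test of edgeR, adjusted over all tested genes by the Benjamini-Hochberg method (exact two-sided permutation p = 0.0286, the smallest that 4 against 4 can give). A count over the whole gene does not read the deleted part by itself, and each direction below rests on the labels. In all, 228 of 15902 genes passed an adjusted p of 0.05, and 110, 130 and 146 did so without WT replicate 3, KO replicate 3 and KO replicate 4. Both libraries numbered 1 stood apart on the second principal component, which held 19.8% of the variance, at 13.1 (KO) and 20.9 (WT) against -9.02 to -2.49 for the other 6. Pan-neuronal markers were abundant in every library, at a summed 7285 to 7876 CPM in the libraries labelled KO and 7081 to 7565 CPM in those labelled WT.

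Of the 9 scaffold genes, Grasp passed the threshold, higher in the libraries labelled KO, and the other 8 did not. That is 1 of 9, where 1.43% of all tested genes passed, 1.14% higher and 0.289% lower. The groups did not overlap in Grasp alone of the 9 genes, and in 7.67% of all tested genes. Without both libraries numbered 1 (a setting chosen after the data were seen), Grasp was again the 1 gene of the 9 that passed. Homer1 had the next largest difference, Arc had almost the same mean in both groups, and the other 6 genes differed by under 5% in their fitted fold. All 9 log2 fold changes were above 0, with a median of 0.05, against 48.0% above 0 and a median of -0.005 over all tested genes. For Arc and Homer3, the values nearest 0, the sign turned under another scaling. That of Homer2 turned without KO replicate 4 or without WT replicate 4, and that of Shank1 without KO replicate 4. The 9 signs are not independent, since some genes varied together. With the group means taken out, Pearson r was 0.81 for Shank1 with Shank3, 0.80 for Shank1 with Dlg4 and -0.79 for Homer2 with Homer3.

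**Figure D1:**
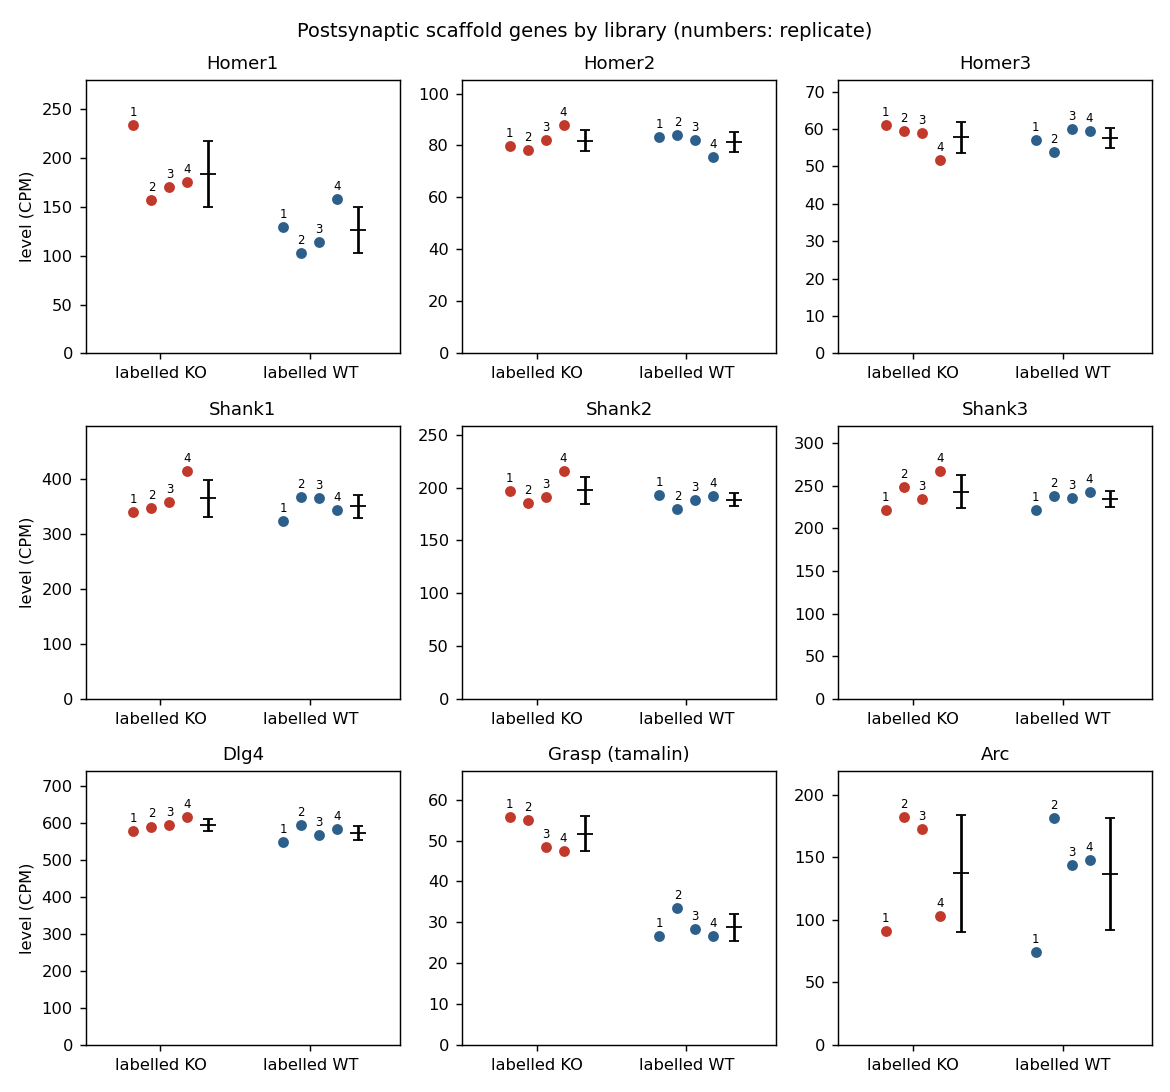
Level of each scaffold gene in CPM (vertical axes, each from 0) in the 4 libraries labelled KO (red, left) and the 4 labelled WT (blue, right), with replicate numbers above the points and the mean ± SD as a black bar. Grasp is the gene whose red points, at 47.4 to 55.8 CPM, all lie above its blue points, at 26.6 to 33.5 CPM, while Arc spreads widely in both groups.

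Grasp encodes tamalin, the adaptor between group I metabotropic receptors and cytohesins. It stood at 55.8, 55.1, 48.5 and 47.4 CPM in KO replicates 1 to 4, and at 26.6, 33.5, 28.5 and 26.6 CPM in WT replicates 1 to 4. Every library labelled KO lay above every library labelled WT, with the lowest of the first at 47.4 CPM and the highest of the second at 33.5 CPM. The means were 51.7 ± 4.35 CPM in the libraries labelled KO and 28.8 ± 3.27 CPM in those labelled WT (SD, n = 4 each), a 1.79-fold higher level in the first. The log2 fold change was 0.84 (SE 0.08, 95% interval 0.68 to 1.0), and edgeR gave an adjusted p of 1.22e-05. By p-value Grasp ranked 5 among all 15902 tested genes, and by fold 21 among the 182 genes that passed in the higher direction. The values rest on 710 to 918 counts in each library labelled KO and 316 to 570 in each labelled WT. Leaving out any 1 library left the log2 fold change between 0.80 and 0.92, with an adjusted p of at most 0.000162.

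Grasp (ENSMUSG00000000531) lies on the plus strand of chromosome 15 from 101224188 to 101232756 on GRCm38, in the GENCODE M21 annotation. The antisense gene A330009N23Rik overlaps it on the other strand, and whether the counting used strand is not given in the sources used here. A330009N23Rik stood at 8.70 ± 1.58 CPM in the libraries labelled KO and 6.75 ± 0.56 CPM in those labelled WT (SD, n = 4 each; log2 fold change 0.38, SE 0.13, adjusted p = 0.181 by edgeR), a lower level than Grasp in both groups. Of the other genes within 100 kb, Nr4a1, a rapidly induced nuclear receptor gene, stood at 64.7 ± 26.1 CPM in the libraries labelled KO and 75.2 ± 29.1 CPM in those labelled WT, and Acvr1b, an activin receptor gene, at 128 ± 7.22 and 125 ± 2.78 CPM (SD, n = 4 each). Neither passed (adjusted p = 0.891 and 0.851 by edgeR). RefSeq's promoter table (GRCm38.p6) had windows for 6 of the 9 genes. The 250 bases before a RefSeq start are shown for Grasp and Homer1 (the first of its 2 windows), the genes with the 2 largest fold changes. Capitals mark matches on either strand to TGACG, the core of the cAMP response element that the activity-regulated factor CREB binds, and to TATAAA, the letters of a TATA box.
Grasp promoter, chr15:101223957-101224206, plus strand: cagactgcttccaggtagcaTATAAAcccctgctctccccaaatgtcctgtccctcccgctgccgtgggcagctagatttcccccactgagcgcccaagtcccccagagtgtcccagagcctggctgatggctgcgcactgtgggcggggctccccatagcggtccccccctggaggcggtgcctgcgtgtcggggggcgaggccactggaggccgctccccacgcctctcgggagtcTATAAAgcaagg
Homer1 promoter, chr13:93303507-93303756, plus strand: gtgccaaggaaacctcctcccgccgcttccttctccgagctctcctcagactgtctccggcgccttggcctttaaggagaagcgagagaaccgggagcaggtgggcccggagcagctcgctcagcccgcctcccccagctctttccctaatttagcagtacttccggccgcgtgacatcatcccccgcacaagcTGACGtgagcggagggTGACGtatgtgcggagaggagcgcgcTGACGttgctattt
The Grasp window held TATAAA at 2 places, at -230 and -12 from the RefSeq start, and no TGACG. The GENCODE start lies inside the window, before the second match. The Homer1 window shown held TGACG at 3 places, at -56, -40 and -14, and no TATAAA. The GENCODE start of Homer1, at 93299635, lies before both of its windows, so both lie inside the annotated gene. RefSeq's table gave Homer1 a further start, and that window (chr13:93307784-93308033) held neither TGACG nor TATAAA. Of 32851 promoter windows of this length, 12.4% held TATAAA, 17.8% held TGACG, and 0.688% held TGACG at 3 or more places. The minimum of 3 places equals the count in Homer1, so that share is a description. The full element TGACGTCA, which contains TGACG, was in none of these windows and in 1.55% of all windows. Also searched were GCGTGGGCG, GCGGGGGCG and the CArG box, a run of A or T between CC and GG. None of these was in the Grasp window or in either Homer1 window. A match gives the letters only and is no evidence of binding.

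Homer1 encodes the Homer protein with an activity-induced short form. It stood at 234, 157, 170 and 175 CPM in KO replicates 1 to 4, and at 130, 103, 114 and 158 CPM in WT replicates 1 to 4. The groups met at their edges, since WT replicate 4, at 157.7 CPM, lay just above KO replicate 2, at 157.1 CPM. KO replicate 1 was the highest library. The means were 184 ± 33.8 CPM in the libraries labelled KO and 126 ± 23.8 CPM in those labelled WT (SD, n = 4 each), and the log2 fold change of 0.55 (SE 0.18, 95% interval 0.11 to 0.98) did not pass by edgeR (adjusted p = 0.281). It passed by limma-voom (adjusted p = 0.0366) and by limma-voom with quality weights (adjusted p = 0.0192), and over the other alternatives the adjusted p ran up to 0.548. Homer1 (ENSMUSG00000007617) lies on the plus strand of chromosome 13 from 93299635 to 93405129 on GRCm38, with 11 protein-coding transcripts in GENCODE M21.

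Homer2 and Homer3, which each encode a Homer protein of their own, differed little between the groups. Homer2 stood at 79.7, 78.2, 81.9 and 87.7 CPM in the libraries labelled KO, and at 83.4, 83.9, 82.0 and 75.5 CPM in those labelled WT. Homer3, abundant in Purkinje cells of the cerebellum, stood at 61.0, 59.4, 58.9 and 51.7 CPM in the libraries labelled KO, and at 57.2, 54.0, 59.9 and 59.5 CPM in those labelled WT. The groups overlapped in both genes. The fitted log2 fold changes were 0.01 (95% interval -0.09 to 0.12) for Homer2 and 0.001 (95% interval -0.12 to 0.12) for Homer3, neither of which passed (adjusted p = 0.954 and 0.998 by edgeR). The intervals allow a difference of up to about 1.08- and 1.09-fold upward. Homer3 overlaps Ddx49 on the other strand and shares its deposited locus, and 5 of its 8 counts were fractions, so reads of the pair may have been split between them. Ddx49 stood at 57.8 ± 2.90 CPM in the libraries labelled KO and 58.4 ± 2.22 CPM in those labelled WT (SD, n = 4 each).

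The 3 Shank genes encode the large scaffolds that sit between SAPAP and Homer. Shank1 stood at 340, 348, 359 and 415 CPM in the libraries labelled KO, and at 324, 367, 367 and 345 CPM in those labelled WT. Shank2 stood at 197, 186, 191 and 216 CPM in the libraries labelled KO, and at 193, 180, 189 and 192 CPM in those labelled WT. Shank3 stood at 222, 248, 234 and 267 CPM in the libraries labelled KO, and at 221, 238, 236 and 243 CPM in those labelled WT. The groups overlapped in each gene, and KO replicate 4 was the highest library of all 8 for the 3 genes and for Dlg4. The log2 fold changes were 0.06 for Shank1 (SE 0.06), 0.07 for Shank2 (SE 0.05) and 0.05 for Shank3 (SE 0.05), with adjusted p of 0.752, 0.608 and 0.751 by edgeR. The upper 95% bounds were 1.14-, 1.12- and 1.12-fold. Without KO replicate 4 the sign of Shank1 turned, to -0.007. The noncoding gene Gm15609 overlaps Shank3 on the other strand and shares its deposited locus. Gm15609 stood at 6.45 ± 0.76 CPM in the libraries labelled KO and 7.17 ± 0.47 CPM in those labelled WT (SD, n = 4 each). In WT replicate 2 both counts were fractions (3885.93 for Shank3 and 117.1 for Gm15609), so reads of the pair may have been split between them.

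Dlg4, the gene of PSD-95, was the steadiest of the 9 genes between libraries. It stood at 578, 590, 594 and 616 CPM in the libraries labelled KO, and at 548, 593, 566 and 583 CPM in those labelled WT. The groups overlapped, with WT replicate 2 above KO replicates 1 and 2. The means were 595 ± 15.8 CPM in the libraries labelled KO and 573 ± 19.8 CPM in those labelled WT (SD, n = 4 each). The log2 fold change of 0.05 (SE 0.04, 95% interval -0.02 to 0.13) did not pass (adjusted p = 0.591 by edgeR), and its upper bound is a 1.10-fold difference.

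**Figure D2:**
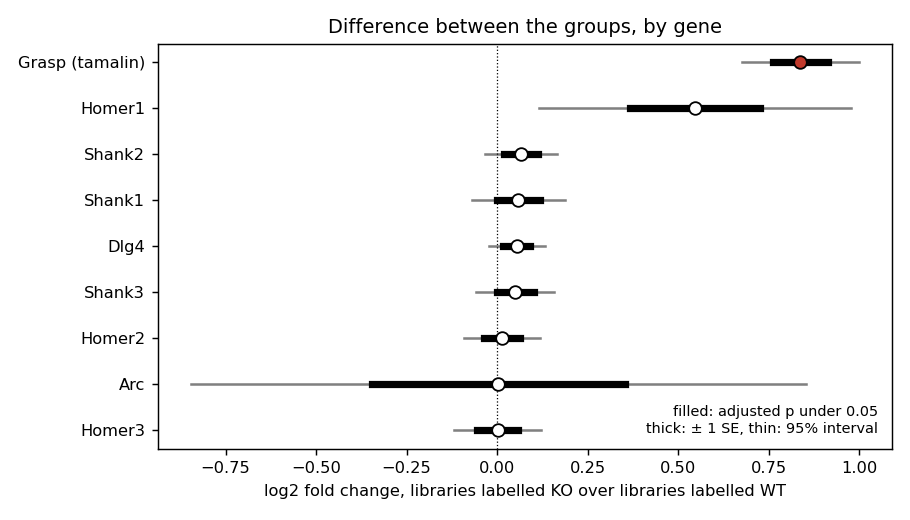
Fitted log2 fold change of each gene (horizontal axis), libraries labelled KO over those labelled WT, with ± 1 SE as thick and the 95% interval as thin lines, and a filled point where the adjusted p was under 0.05. Grasp is the filled point, at 0.84, Homer1 lies at 0.55 with an interval of 0.11 to 0.98, and the interval of Arc, -0.85 to 0.85, is the widest.

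Arc encodes the activity-regulated cytoskeleton-associated protein. It stood at 91.2, 182, 173 and 103 CPM in KO replicates 1 to 4, and at 74.3, 181, 144 and 148 CPM in WT replicates 1 to 4. The low libraries were KO replicates 1 and 4 and WT replicate 1, and the high and low values of the groups overlapped almost entirely. The means were 137 ± 46.8 CPM in the libraries labelled KO and 137 ± 45 CPM in those labelled WT (SD, n = 4 each), at a log2 fold change of 0.003 (SE 0.35, adjusted p = 0.9997 by edgeR). The 95% interval, -0.85 to 0.85, does not exclude any fold from 0.557 to 1.81. It is not a limit of detection, and a larger difference could also miss the threshold at this spread. Without WT replicate 1 the log2 fold change was -0.19.

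The 9 genes differed widely in how much they varied between libraries of a group, a measure that does not use the difference between the groups. edgeR's biological coefficient of variation, the spread beyond counting noise, was 34.6% for Arc and 17.4% for Homer1, against a common value of 5.38%. Arc thus varied more than 99.6% of all tested genes and Homer1 more than 98.4%. Grasp had 6.79%, above 63.6% of genes, and Shank1 6.17%. The other 5 genes ran from 4.14% for Dlg4, above 8.04% of genes, to 5.31% for Shank3. Within each group, the SD of Arc was 34% of its mean in the libraries labelled KO and 32.9% in those labelled WT, and that of Homer1 was 18.4% and 18.9%.

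**Figure D3:**
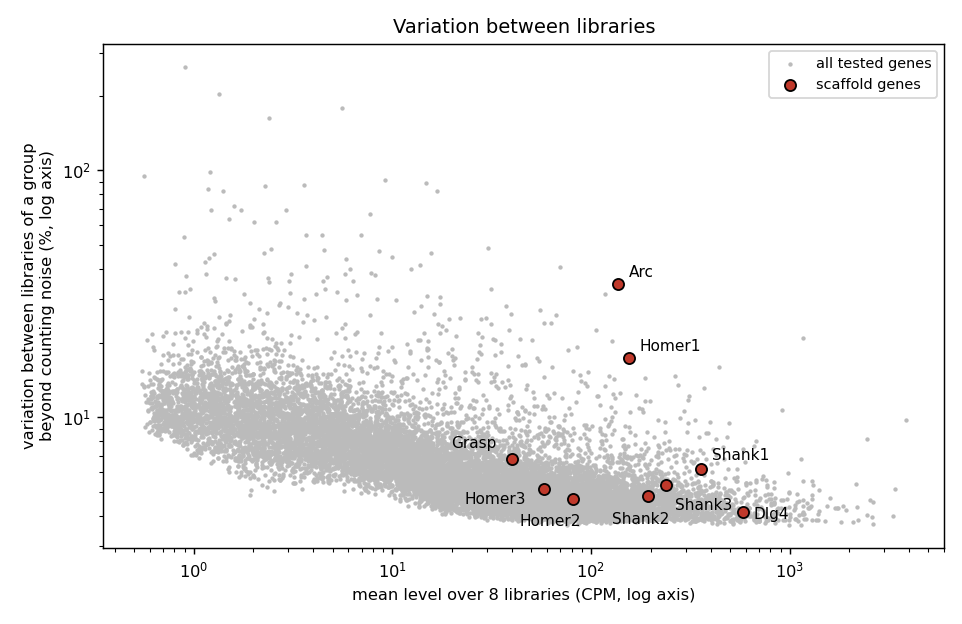
Biological coefficient of variation between libraries of a group (vertical axis, percent, log scale) against the mean level over 8 libraries (horizontal axis, CPM, log scale) for all 15902 tested genes in grey and the 9 scaffold genes in red. Arc, at 34.6%, and Homer1, at 17.4%, lie well above genes of similar level, and the other 7 lie within the main cloud at 4.14% to 6.79%.

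The genes whose levels over the 8 libraries were most like those of Arc and Homer1 differed between the 2. Among 9822 named autosomal protein-coding genes with a mean of at least 10 CPM, the 5 with the highest Pearson r with Arc (log2 CPM, n = 8 libraries) were Bloc1s5 (r = 0.979), Sik1 (0.963), Nr4a1 (0.963), Polr2f (0.951) and Insig1 (0.946). Nr4a1 stood at 38.3, 82.0, 91.8 and 46.8 CPM in KO replicates 1 to 4, and at 37.2, 106.5, 85.2 and 71.9 CPM in WT replicates 1 to 4, low in the same 3 libraries as Arc. Sik1, a salt-inducible kinase gene, stood at 12.7, 20.1, 20.6 and 15.9 CPM in the libraries labelled KO and 11.3, 22.8, 20.4 and 17.8 CPM in those labelled WT. For Homer1 the 5 genes were Kpnb1 (r = 0.982), Sh3rf1 (0.963), Bdnf (0.962), Fnbp1l (0.958) and Schip1 (0.955). Bdnf, the brain-derived neurotrophic factor gene, stood at 58.8, 34.1, 40.8 and 38.4 CPM in KO replicates 1 to 4, and at 25.1, 23.5, 27.4 and 33.0 CPM in WT replicates 1 to 4. It shared with Homer1 the peak in KO replicate 1 and, among the libraries labelled WT, that in replicate 4. Of these 5 genes, Schip1 passed the threshold, higher in the libraries labelled KO (adjusted p = 0.0358 by edgeR). With the group means taken out, r was 0.983 for Arc with Nr4a1 and 0.903 for Homer1 with Bdnf. These genes were picked as the highest of 9822, so r is a description and was not tested.

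**Figure D4:**
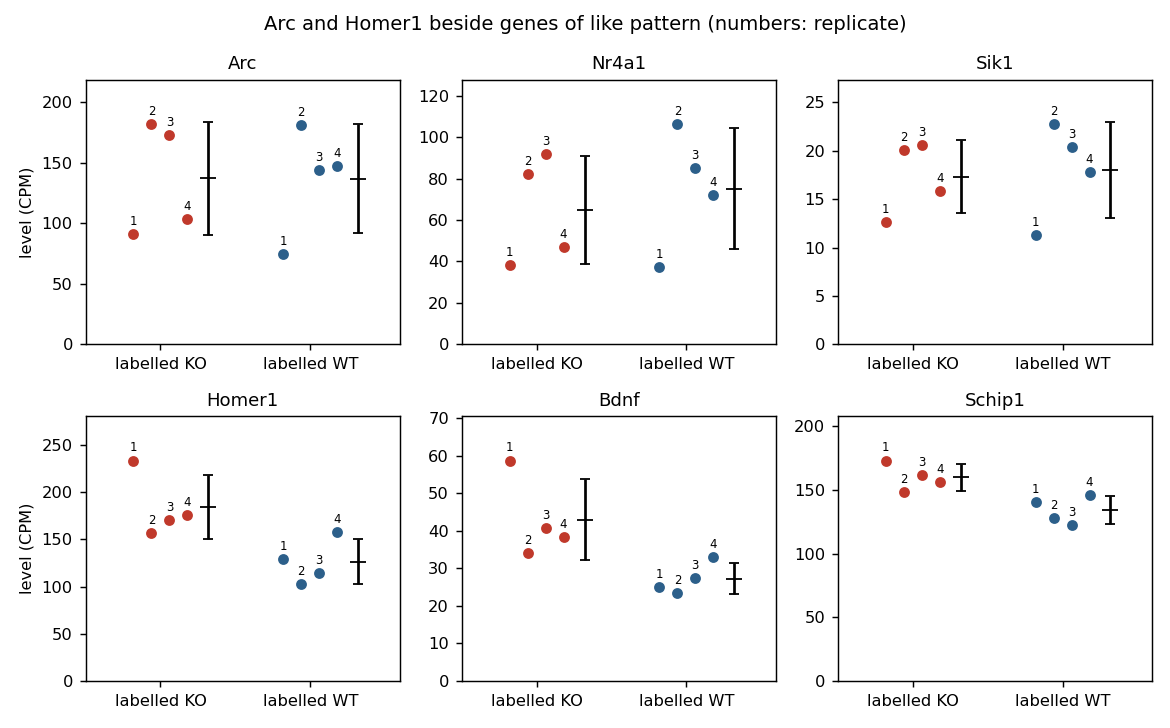
Level in CPM (vertical axes, from 0) of Arc, Nr4a1 and Sik1 (top) and of Homer1, Bdnf and Schip1 (bottom) in the 4 libraries labelled KO (red) and the 4 labelled WT (blue), with replicate numbers above the points and the mean ± SD as a black bar. The top genes are low in KO replicates 1 and 4 and in WT replicate 1, and the bottom genes are highest in KO replicate 1.

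Chosen after its values were seen, the same ranking for Grasp gave Pgbd5 (r = 0.994), Srxn1 (0.987), Gps1 (0.983), Sema4a (0.982) and Ptgs1 (0.973). Of these, Pgbd5, Srxn1, Sema4a and Ptgs1 also passed the threshold, higher in the libraries labelled KO, with adjusted p of 0.00059, 7.76e-05, 3.87e-05 and 0.00549 by edgeR, and Gps1 did not (adjusted p = 0.276). Sema4a, a semaphorin gene, stood at 77.6, 73.8, 69.7 and 75.0 CPM in the libraries labelled KO, and at 50.4, 57.0, 53.0 and 53.4 CPM in those labelled WT. A high r over 8 libraries includes the difference between the groups, and with the group means taken out it was 0.918 for Pgbd5 and 0.746 for Sema4a.

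Per kilobase of the longest protein-coding transcript, Dlg4 had the highest level of the 9 genes and Homer2 the lowest. Over all 8 libraries the mean was 92.3 ± 3.21 CPM per kb (SD, n = 8) for Dlg4, and its range did not overlap that of any other gene. Arc (44.9 ± 13.9), Shank1 (36.5 ± 2.77), Shank3 (32.4 ± 2.01), Homer1 (27.2 ± 7.21), Homer3 (22.1 ± 1.24), Shank2 (21.5 ± 1.16) and Grasp (19.8 ± 6.27 CPM per kb) followed, and each overlapped the next in its range. Homer2 was at 7.42 ± 0.34 CPM per kb, below every library of Grasp. By group, Grasp stood at 25.4 ± 2.14 CPM per kb in the libraries labelled KO and 14.2 ± 1.61 CPM per kb in those labelled WT (SD, n = 4 each). The order depends on the transcript taken: with the median length, Homer2 was at 48.4 CPM per kb and Grasp was the lowest gene over all 8 libraries, at 19.8 CPM per kb. By group at that length, Grasp, at 25.4 CPM per kb, lay above Homer3, at 24.9 CPM per kb, in the libraries labelled KO, and was the lowest in those labelled WT, at 14.2 CPM per kb.

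The partners of the scaffold were read from 7 lists of binding partners and postsynaptic enzymes. Of their 88 tested genes, 4 passed with a higher level where KO is labelled and 1 with a lower level, where the background is 1.14% and 0.289%, and the median log2 fold change was 0.04. The Shank partners held 3 genes that rose among 16, 0 that fell and 13 that did not pass, at a median of 0.05. DESeq2 called 5 of the 16 and limma-voom 2. Baiap2, the gene of IRSp53, an actin regulator that binds Shank and PSD-95, stood at 316, 347, 322 and 327 CPM in the libraries labelled KO, and at 257, 257, 249 and 263 CPM in those labelled WT. The groups did not overlap, with an adjusted p of 4.19e-05 by edgeR and a log2 fold change of 0.36 (SE 0.04). Sstr2, a somatostatin receptor gene, stood at 15.5, 16.2, 16.2 and 17.8 CPM in the libraries labelled KO, and at 11.4, 12.6, 11.7 and 11.01 CPM in those labelled WT. The groups of Sstr2 did not overlap either, at a log2 fold change of 0.49 (SE 0.08, adjusted p = 0.00201 by edgeR). Dlgap3, the gene of SAPAP3, which links PSD-95 to Shank, had 301 ± 13.4 CPM in the libraries labelled KO and 263 ± 16.8 CPM in those labelled WT (SD, n = 4 each; log2 fold change 0.19, SE 0.05, adjusted p = 0.0485 by edgeR).

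Among 9 partners of tamalin, 0 rose, 1 fell and 8 did not pass, and the median was -0.03 on the log2 scale. The gene that fell was Cyth1, the gene of cytohesin 1, at 99.1 ± 2.60 CPM in the libraries labelled KO and 115 ± 4.91 CPM in those labelled WT (SD, n = 4 each; log2 fold change -0.21, SE 0.04, adjusted p = 0.0196 by edgeR). Of 10 PSD-95 family and SAPAP genes, Dlgap3 rose and 9 did not pass, and of 18 tested (19 listed) postsynaptic enzymes and spine regulators, Rheb, a small GTPase upstream of mTOR, rose (121 ± 5.09 CPM in the libraries labelled KO and 107 ± 2.02 CPM in those labelled WT, SD, n = 4 each, adjusted p = 0.0451 by edgeR) and 17 did not pass. Baiap2 and Sstr2 passed without any 1 library. Dlgap3 missed the threshold without KO replicate 2, 3 or 4 or WT replicate 1, 3 or 4 (adjusted p up to 0.164), Cyth1 without KO replicate 3 or WT replicate 2 or 3 (up to 0.115), and Rheb without any 1 library but KO replicate 2 (up to 0.159). Without both libraries numbered 1, Baiap2 and Sstr2 were the 2 that passed of these 5. Dlgap3 and Rheb also depended on the method: they passed by DESeq2 (adjusted p = 0.0159 and 0.0125) and missed by limma-voom (adjusted p = 0.0634 and 0.0547). With upper-quartile factors Dlgap3 missed as well (adjusted p = 0.0589 by edgeR).

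No partner of PSD-95 (29 tested), Homer (9) or Arc (10) passed by edgeR. Unadjusted, 6, 1 and 0 of them had a p under 0.05, where 12.6% of all tested genes did, and DESeq2 and limma-voom called 0 in each list. The medians were 0.05, -0.02 and 0.04 on the log2 scale. Among the members with the lowest p were Sipa1l1, Cacng4 and Cacng8 for PSD-95 (log2 fold changes 0.12, 0.15 and 0.15), Ryr1 and Agap2 for Homer (-0.20 and 0.06) and Notch1 and Sh3gl1 for Arc (-0.08 and -0.08). Sipa1l1 passed without KO replicate 2 (adjusted p = 0.0368).

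Of 30 activity-induced genes, 8 rose, 0 fell and 22 did not pass, where 1.14% of all tested genes rose and 0.289% fell. The median log2 fold change of the 30 was 0.08, and 16 were above 0, against 48.0% of all tested genes. For 11 of the 30 the range of the KO libraries lay wholly apart from that of the WT libraries. Such a separation held for 7.67% of all tested genes. The count of those that rose was 5 without KO replicate 3, WT replicate 1, WT replicate 2 or WT replicate 3, and 9 without both libraries numbered 1. The 8 were Egr3, Inhba, Nptx2, Gadd45b, Rgs2, Vgf, Nrn1 and Rheb. Nptx2, a pentraxin gene of excitatory synapses, stood at 182, 112, 110 and 99.6 CPM in KO replicates 1 to 4, and at 42.9, 45.9, 45 and 46.4 CPM in WT replicates 1 to 4, with its highest library the same as for Homer1. It missed the threshold without KO replicate 2 or 3 or any 1 library labelled WT (adjusted p up to 0.128 by edgeR). Rgs2, a regulator of G protein signalling, had 79.1 ± 9.37 CPM in the libraries labelled KO and 59.8 ± 2.55 CPM in those labelled WT, and Nrn1, the gene of neuritin, 194 ± 22.8 and 150 ± 6.17 CPM (SD, n = 4 each; adjusted p = 0.00536 and 0.0162 by edgeR). Nrn1 missed without KO replicate 3 or WT replicate 1, 2 or 3 (up to 0.0757), and Rgs2 passed without any 1 library. Fos, induced within minutes as Arc is, had 24.6 ± 6.09 CPM in the libraries labelled KO and 29.3 ± 6.49 CPM in those labelled WT, and Egr1, also induced within minutes, 180.1 ± 26.6 and 196 ± 30.4 CPM (SD, n = 4 each). Neither passed (log2 fold changes -0.25 and -0.12, adjusted p = 0.734 and 0.813 by edgeR). Junb, Npas4 and Nr4a1 were also below 0 and did not pass, at -0.07, -0.54 and -0.22. Fosb went the other way, at 30.7 ± 9.39 CPM in the libraries labelled KO and 12.8 ± 3.08 CPM in those labelled WT (SD, n = 4 each). Its groups did not overlap, and its log2 fold change of 1.22 (SE 0.26) did not pass (adjusted p = 0.110 by edgeR). Egr3, which rose, had 1.26.

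**Figure D5:**
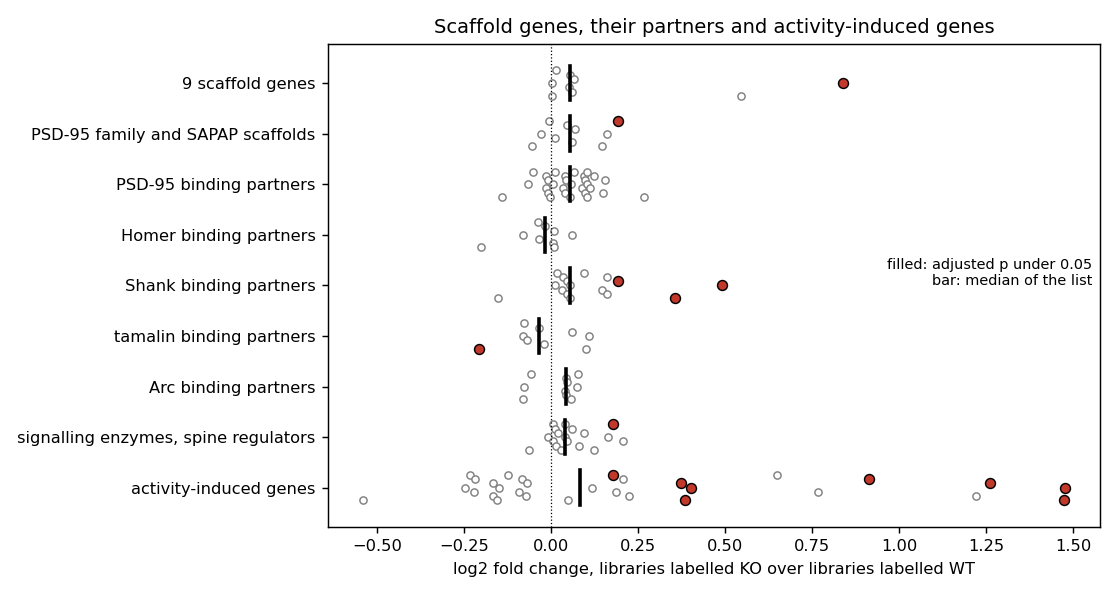
Log2 fold change, libraries labelled KO over those labelled WT (horizontal axis), of each tested gene in the 9 scaffold genes, the 7 partner lists and the activity-induced genes (rows), with filled points for an adjusted p under 0.05 and a bar at each median. The partner lists hold 5 filled genes (Dlgap3 appears in 2 of their rows), and the activity-induced genes hold 8. Rheb is counted in both. The medians of the partner lists lie between -0.03 and 0.05.

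Markers of some cell types and regions moved with the group labels. More cells of a type and more RNA per cell cannot be told apart in brain RNA of unnamed region. Of 10 striatal markers, 3 rose (Ppp1r1b, Drd1a and Adcy5), where 1.14% of all tested genes did. All 10 log2 fold changes were above 0, with a median of 0.17. By edgeR 6 of the 10 had an unadjusted p under 0.05, where 12.6% of all tested genes did. DESeq2 called 4 of the 10, and limma-voom called the same 3 as edgeR. The summed level of the list was 1198 to 1269 CPM in the libraries labelled KO and 1060 to 1171 CPM in those labelled WT. Without both libraries numbered 1, 0 of the 10 passed, and the 3 missed in 3, 5 and 6 of the 8 fits without 1 library (adjusted p up to 0.0908, 0.153 and 0.141 by edgeR): Ppp1r1b without KO replicate 3 or WT replicate 1 or 3, Drd1a without KO replicate 1, 3 or 4 or WT replicate 2 or 3, and Adcy5 without KO replicate 1, 3 or 4 or WT replicate 1, 2 or 3. Of 10 Purkinje and granule cell markers of the cerebellum, 0 passed by edgeR, DESeq2 or limma-voom and 1 had an unadjusted p under 0.05, with a median log2 fold change of -0.11 and a summed 1297 to 1648 CPM in the libraries labelled KO and 1469 to 1871 CPM in those labelled WT. Of 7 forebrain excitatory markers, Emx1 rose, also without any 1 library, at a summed 1575 to 1692 CPM for the list in the libraries labelled KO and 1495 to 1707 CPM in those labelled WT. The 7 log2 fold changes ran from -0.22 to 0.51, with 6 above 0 and a median of 0.11. DESeq2 called 2 of the 7 and limma-voom 1, and 3 had an unadjusted p under 0.05 by edgeR. Of 7 inhibitory neuron markers 6 were above 0, and of 6 oligodendrocyte markers 1 was. In both lists 0 passed by edgeR, DESeq2 or limma-voom. Of 5 dentate gyrus markers, Dsp fell, where 0.289% of all tested genes did. Dsp is a gene of low level, at 2.79 ± 0.45 CPM in the libraries labelled KO and 6.23 ± 0.58 CPM in those labelled WT (SD, n = 4 each). The dentate list had a median log2 fold change of -0.08. Its sums overlapped, at 319 to 377 CPM in the libraries labelled KO and 334 to 406 CPM in those labelled WT. Of 5 endothelial markers, Slco1c1 fell, against the same share of 0.289%. All 5 endothelial log2 fold changes were below 0, with a median of -0.18, and 4 had an unadjusted p under 0.05. The summed level of the endothelial list was 160 to 175 CPM in the libraries labelled KO and 180 to 198 CPM in those labelled WT. Slco1c1 missed the threshold without KO replicate 1, 3 or 4 or WT replicate 2, 3 or 4 (adjusted p up to 0.130 by edgeR). Of 5 microglial markers, 0 passed by edgeR, DESeq2 or limma-voom and 2 had an unadjusted p under 0.05. Their sums were 187 to 197 CPM in the libraries labelled KO and 201 to 219.9 CPM in those labelled WT. The sums of the striatal, endothelial and microglial lists thus each did not overlap between the groups, and a background share was not computed for sums. Of 6 astrocyte markers, 0 passed by edgeR and limma-voom, 1 by DESeq2 and 3 at an unadjusted p under 0.05, with 5 of 6 log2 fold changes below 0 and a summed 4021 to 4333 CPM in the libraries labelled KO and 4236 to 4397 CPM in those labelled WT. All 8 pan-neuronal markers had a log2 fold change above 0, as the 9 scaffold genes did, with a median of 0.06. None of the 8 passed by edgeR, DESeq2 or limma-voom, and 3 had an unadjusted p under 0.05. The part of these shifts in the values of Grasp, Homer1 and the partners was not tested.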

How the data were processed

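The authors deposited estimated counts of reads per gene, not scaled between libraries, from polyadenylated RNA, per the labels' protocols. TopHat2 2.0.9, edgeR and GRCm38 (mm10) are named, per the submitters' processing notes, and the counting program is not given in the sources used here. Counts were rounded to whole numbers. edgeR 4.0.16 (R 4.3.3) filtered genes with filterByExpr, scaled by TMM and compared KO with WT by the robust quasi-likelihood test with Benjamini-Hochberg adjustment at 0.05. Intervals are at 95% from the fit's t distribution. Pairs of libraries of a group differed beyond sampling noise (chi-square per degree of freedom 2.46 to 5.04). The 9 genes and all lists were chosen with earlier results of these data known. Named were the 9 genes, Uhrf2, list members past the threshold, the 3 lowest p of postsynaptic lists without one, and the 5 genes most like Homer1 and Arc. Some genes that this rule names are not reported here. The others named were chosen after their values were seen. Alternatives used DESeq2 1.42.0 and limma 3.58.1.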

Additional observations from a re-analysis of the deposited data

Results flagged for a closer look

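Among 20 sets of 4 libraries (the 9 scaffold genes and Uhrf2, in each group), 1 held a library far from the others. Uhrf2 in WT replicate 2 stood at 47.7 CPM, while the other libraries labelled WT stood at 57.2 to 58.9 CPM, so that its gap to the nearest was 0.851 of the whole range, above the limit of 0.829 for 4 values. Chance alone gives about 1 such library in 20 sets.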

How the results depend on the processing

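Grasp and Uhrf2 passed, higher in the libraries labelled KO, under all 18 alternatives, at log2 fold changes of 0.77 to 0.92 and 0.61 to 0.72. Shank2, Shank3 and Dlg4 kept their sign and did not pass in any of them. Homer1 passed by limma-voom (0.55) and with quality weights (0.54) and ran from 0.41 to 0.67 without 1 library. Homer2 ran from -0.022 to 0.035 and Shank1 from -0.0071 to 0.092 without 1 library. Homer3 ran from -0.030 to 0.050 without 1 library and was -0.0025 with upper-quartile factors, -0.00078 by limma-voom, -0.0080 with quality weights, -0.00029 with the replicate block, and, in settings added after the data were seen, -0.025 without both libraries numbered 1 and -0.027 with GC content and length trends removed. Arc ran from -0.19 to 0.17 without 1 library and was -0.0013 with upper-quartile factors, -0.0099 with quality weights, -0.038 without both libraries numbered 1 and -0.016 with those trends removed. The number of genes past the threshold ran from 110 to 324 without 1 library (96 to 247 higher, 14 to 77 lower), and 18 were lower without both libraries numbered 1. Of the partner and activity lists together, 7 to 14 genes passed without 1 library, against 12 with all. With the median transcript length the levels were 627 (Dlg4), 62.8 (Homer1), 56.4 (Shank3), 53.9 (Shank1), 48.4 (Homer2), 25.2 (Shank2) and 24.8 (Homer3) CPM per kb. The cause of these shifts was not tested.

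With the replicate number as a block, 495 genes passed, 347 higher and 148 lower, and Grasp stayed the 1 scaffold gene that did. Under the block 8 genes of the partner lists passed, against 5 without it, and Ryr1, a Homer partner, was one of them (-0.20, adjusted p = 0.0491 by edgeR), while Nptx2 did not pass (1.43, adjusted p = 0.0894 by edgeR). The libraries share only a number: deviations of same-numbered libraries correlated at 0.208, 0.077, 0.024 and 0.067, and not every library correlated best with its own number. At this depth, the spread between libraries, not counting error, sets the width of the intervals of Homer1 and Arc.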

Other observations

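Of 54 tested genes within 100 kb of a scaffold gene, 0 passed by edgeR, 9 had an unadjusted p under 0.05 (12.6% of all tested genes did), and DESeq2 called 1 and limma-voom 0. The gene that DESeq2 called was Slc25a42, a mitochondrial carrier gene near Homer3, at 49.2 ± 5.55 CPM in the libraries labelled KO and 40.4 ± 1.73 CPM in those labelled WT (SD, n = 4 each; adjusted p = 0.0521 by edgeR). Cttn, the cortactin gene that neighbours Shank2 and whose protein binds Shank, stood at 126 ± 2.52 CPM in the libraries labelled KO and 124 ± 0.91 CPM in those labelled WT (SD, n = 4 each; adjusted p = 0.943 by edgeR).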
